A study of Mus musculus with 12 samples.

Results

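The genes described here are p53 targets that promote cell death: Bbc3, Pmaip1, Bax, Perp, Fas, Tnfrsf10b, Aen, Apaf1, Ei24 and Eda2r. They were taken as a named list of 10 genes, and each was read by the probe set with the highest mean over 12 arrays among those whose single gene symbol in the platform annotation is that gene. Of the 10 genes, 9 were read, by 14 probe sets in all, among 18193 genes read on the arrays. Bax was read by no such probe set and is not analysed here. A filter on low values kept 6 of the 9 for testing (Bbc3, Pmaip1, Perp, Aen, Apaf1 and Ei24) among 13501 genes tested. Fas and Tnfrsf10b lay below the 40th percentile of the array on all 12 arrays, and Eda2r lay above it on 2. By RefSeq, Bbc3, Bax and Aen lie on chromosome 7, Perp and Apaf1 on 10, Ei24 on 9, Tnfrsf10b on 14, Pmaip1 on 18, Fas on 19 and Eda2r on X.

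Whole mouse embryos at E10.5, in midgestation, gave RNA for 1 expression array each, in 4 genotypes of 3 embryos. Double mutant embryos (double) are homozygous for the acd allele of Acd and lack p53, acd embryos are labelled as homozygous for that allele with p53 present, p53 embryos (p53-/-) lack p53 alone, and wt embryos are wild type. The labels call the replicates biological, describe neither allele, and give no litter or strain, so p-values measure the spread between these embryos. Values are RMA log2 values, on which a difference of 1 is a doubling.

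TPP1, the product of Acd, belongs to shelterin, the complex that shields chromosome ends, and ends without that shield are sensed as broken DNA. p53 is a transcription factor that is stabilised by damage signals and raises transcription of genes that stop the cell cycle or start apoptosis. Its apoptotic targets act at several steps. Bbc3 (Puma) and Pmaip1 (Noxa) bind and neutralise Bcl-2 family survival proteins, Bax makes pores in the mitochondrial membrane, and Apaf1 assembles with released cytochrome c into the apoptosome that activates caspase 9. Fas and Tnfrsf10b, a receptor for TRAIL, are death receptors at the cell surface. Eda2r is a receptor for the ectodysplasin isoform EDA-A2, Perp is a membrane protein also found in desmosomes, Aen is a nuclease that enhances apoptosis, and Ei24 is a protein of the endoplasmic reticulum. The comparisons ask whether homozygous acd raises these transcripts and whether that needs p53.

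p53 binds pairs of a 10-base half-site. RefSeq promoter windows of 300 bases, which run from 250 bases before to 50 bases from the annotated start (assembly GRCm38.p6), were held for 7 of the 10 genes, as 10 windows. The half-site letters were found in 4 of the 10 windows, those of Bax, Aen (both windows) and Ei24. Both Aen windows overlap and hold the same half-site, so by gene the letters were found in 3 of the 7. Of all 32851 windows of that length 8.36% held at least 1 half-site, and 0.0731% held 2 with at most 13 bases between them. The half-site pattern is its own reverse complement, so both strands were searched at once. The windows of Aen, Bbc3 and Eda2r are shown because the values below turn on these genes, and that of Ei24 because it holds a half-site as Aen does. Each is written 5′ to 3′ on the strand of the gene, in lower case with half-sites in capitals. A match is a description of letters and not of a binding site, and no match says only that these letters are not in that window.
Aen, chr7:78895677-78895976, plus strand: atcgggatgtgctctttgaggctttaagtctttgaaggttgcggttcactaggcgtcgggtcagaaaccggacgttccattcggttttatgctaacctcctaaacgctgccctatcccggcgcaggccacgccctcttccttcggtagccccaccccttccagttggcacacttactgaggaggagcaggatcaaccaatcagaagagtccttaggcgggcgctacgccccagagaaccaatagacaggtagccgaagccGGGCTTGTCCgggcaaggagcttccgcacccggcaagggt
Bbc3, chr7:16309333-16309632, plus strand: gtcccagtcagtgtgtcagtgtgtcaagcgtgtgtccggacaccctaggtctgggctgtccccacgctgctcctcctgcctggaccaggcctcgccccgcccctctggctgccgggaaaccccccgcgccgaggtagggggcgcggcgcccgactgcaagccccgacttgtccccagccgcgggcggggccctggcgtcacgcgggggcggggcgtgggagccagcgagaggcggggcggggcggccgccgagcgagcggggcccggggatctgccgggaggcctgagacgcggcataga
Eda2r, chrX:97377160-97377459, minus strand: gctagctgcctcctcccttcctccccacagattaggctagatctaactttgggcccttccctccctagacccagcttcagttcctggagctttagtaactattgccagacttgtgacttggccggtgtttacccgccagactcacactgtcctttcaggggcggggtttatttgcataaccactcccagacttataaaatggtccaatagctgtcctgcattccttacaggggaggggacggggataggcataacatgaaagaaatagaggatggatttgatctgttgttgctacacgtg
Ei24, chr9:36797285-36797584, minus strand: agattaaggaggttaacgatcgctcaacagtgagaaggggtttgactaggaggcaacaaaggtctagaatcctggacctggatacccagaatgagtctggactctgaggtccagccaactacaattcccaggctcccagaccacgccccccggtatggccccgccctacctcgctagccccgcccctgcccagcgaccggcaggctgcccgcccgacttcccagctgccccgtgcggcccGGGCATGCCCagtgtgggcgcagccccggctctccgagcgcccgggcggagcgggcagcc
The Aen half-site, GGGCTTGTCC, spans positions 11 to 20 counted from the first transcribed base as 1. It also lies in the window of a second annotated Aen start, at positions -121 to -112. The Ei24 half-site, GGGCATGCCC, spans positions -10 to -1. No half-site was found in the 3 Bbc3 windows or in those of Eda2r, Fas and Apaf1.

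Acd itself measured 8.36 ± 0.11 in double mutants, 8.26 ± 0.05 in acd, 8.91 ± 0.12 in p53 and 8.99 ± 0.01 in wt embryos (SD, n = 3 each). All 12 transcripts that mark organs of a midgestation embryo, among them Hbb-bh1 for blood, Myl7 for heart, Sox2 for neural tissue and Prrx1 for limb mesenchyme, lay above the array median on all 12 arrays. The arrays of double mutant replicates 1 and 2 differed from the rest, their median correlation with the others being 0.972 and 0.987, where each of the other 10 reached at least 0.995. In those arrays the mean of 14 macrophage markers lay 1.33 and 0.90 above its wt mean, against -0.20 in double mutant replicate 3. The same mean ran from -0.19 to 0.13 in acd, from -0.21 to 0.14 in p53 and from -0.08 to 0.10 in wt embryos. Relative to wt, the mean of 10 interferon response genes was 3.77, 3.35 and 0.23 in double mutant embryos 1, 2 and 3, and between -0.04 and 0.22 in the other 9 arrays. The mean of 8 markers of primitive red cells was 0.49, 0.11 and -0.32 in the double mutants, -0.18, 0.42 and 0.05 in acd embryos, -0.34 to -0.03 in p53 embryos and -0.12 to 0.18 in wt embryos. Y-linked transcripts were present in 1 of 3 double mutant, 3 of 3 acd, 3 of 3 p53 and 1 of 3 wt embryos. Sex is therefore not balanced over the genotypes. A term for sex is estimated within the double mutant and wt embryos alone. Among the double mutants only replicate 1, the array least like the rest, carried Y-linked transcripts.

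No apoptotic target passed limma's test in any of the 6 comparisons (adjusted p at or above 0.371 throughout). At most 2 of all 13501 genes passed in any of them. The share called was 0.0148% in acd against wt, 0% in p53 against wt, 0.00741% in double against p53, 0% in double against acd, 0.0148% in double against wt and 0% in the interaction. The members' count of 0 is therefore near the background. At an unadjusted p under 0.05 limma gave 1 of the 6 tested members in double against p53, 2 in double against acd, 2 in double against wt, 1 in the interaction and 0 in acd or p53 against wt. Over all genes these shares were 10.7%, 12.6%, 11.1%, 3.93%, 1.77% and 0.726% in the same order, with acd before p53. The members concerned were Bbc3 in each of the 4 and Aen in double against acd and double against wt.

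**Figure D1:**
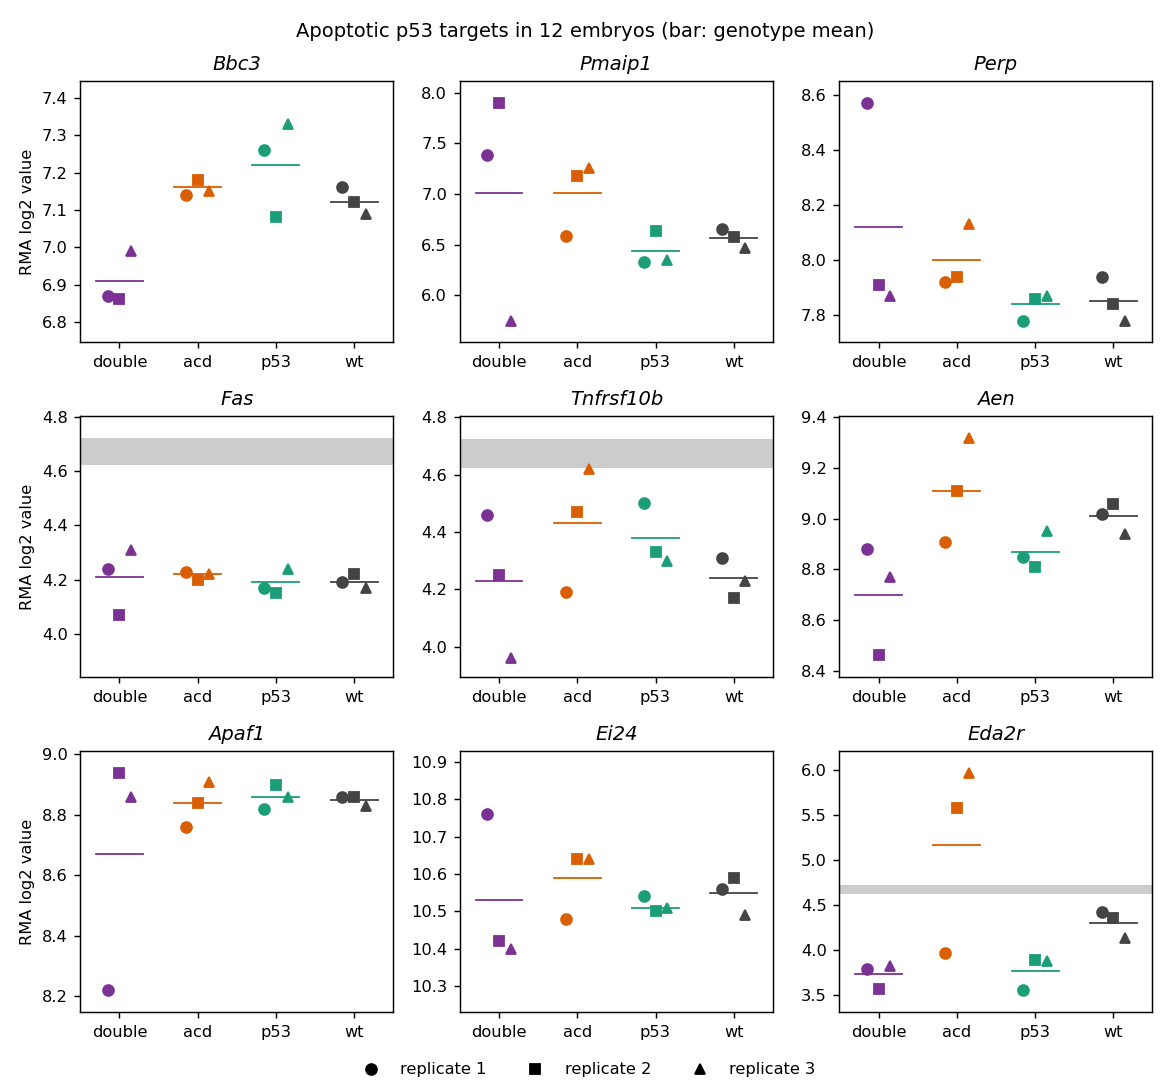
RMA log2 value (vertical axis) of each of the 9 genes read, by genotype (horizontal axis: double, acd, p53, wt); symbols are the 3 embryos of a genotype and bars are genotype means. The grey band spans the 40th percentiles of the 12 arrays, 4.62 to 4.72. The 3 double mutant values of Bbc3 lie below all other 9, a split not counted over all genes. Eda2r is above the band in 2 of 3 acd embryos alone.

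Among the genes that act on the Bcl-2 family, Bbc3 was lowest in the double mutants. It measured 6.87, 6.86 and 6.99 in double mutant, 7.14, 7.18 and 7.15 in acd, 7.26, 7.08 and 7.33 in p53 and 7.16, 7.12 and 7.09 in wt embryos. All 3 double mutant values lay below the other 9, while the acd, p53 and wt values overlapped. How many of all genes split in that way was not counted. Of all tested genes, 5.01% were lower without overlap in double against p53, 6.9% in double against acd and 8.24% in double against wt. Double against p53 gave -0.31 ± 0.08 (SE), a level of 0.804 of p53 embryos (limma adjusted p = 0.463). Double against acd gave -0.25 ± 0.08 (adjusted p = 0.371) and double against wt -0.21 ± 0.08 (adjusted p = 0.447). These comparisons share the double mutant arrays and are not independent. The acd effect with p53 present was 0.03 ± 0.08. The interaction takes that effect away from the effect of acd without p53, and was -0.35 ± 0.11 (limma adjusted p = 0.879).

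In double mutant replicate 3, where macrophage and interferon transcripts were near wt, Bbc3 measured 6.99. The lowest acd, p53 or wt array was at 7.08 (p53 replicate 2). The part of macrophage and interferon changes in the Bbc3 values was not tested. Without double mutant replicates 1 and 2, double against p53 was -0.23 and rests on that 1 embryo. Bbc3 passed in double against p53 without double mutant replicate 3 (-0.36, adjusted p = 0.0205) and with array weights (-0.37, adjusted p = 0.0481), and in double against acd in the same 2 settings (adjusted p 0.0404 and 0.0226). With array weights it also passed in double against wt (-0.25, adjusted p = 0.0299), where 13.4% of all genes passed. The array weights of double mutant replicates 1, 2 and 3 were 0.07, 1.61 and 0.25. The weighted double mutant mean therefore rests mostly on replicate 2, 1 of the arrays with high macrophage and interferon means. Without double mutant replicate 3 the share of all genes that passed was 13% in double against p53 and 13.9% in double against acd, and with array weights it was 0.904% and 13.1%. Over all 24 alternatives the difference stayed between -0.39 and -0.23 in double against p53, with adjusted p from 0.0205 to 0.856.

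Pmaip1 split both acd genotypes internally. It measured 7.38, 7.90 and 5.75 in double mutant, 6.59, 7.18 and 7.26 in acd, 6.33, 6.63 and 6.35 in p53 and 6.65, 6.58 and 6.47 in wt embryos. Double mutant replicates 1 and 2 were the highest of all 12 arrays and replicate 3 the lowest, while acd replicates 2 and 3 were above every p53 and wt array and acd replicate 1 lay among them. The differences were 0.44 ± 0.41 in acd against wt and 0.57 ± 0.41 in double against p53, or 1.36 and 1.49 times, neither passing (adjusted p = 1 and 0.536). Fitted with a term for sex, they were 0.22 and 0.80 (adjusted p = 0.928 and 0.295). Without double mutant replicate 3 Pmaip1 passed in double against p53 (1.20, adjusted p = 0.00491) and double against wt (1.07, adjusted p = 0.00835), where 13% and 12.2% of all genes passed. With array weights it also passed in double against wt (1.03, adjusted p = 0.0394). That fit leans on double mutant replicate 2, the highest array. Without replicates 1 and 2 the double against p53 difference turned to -0.69. The arrays with high Pmaip1 in double mutants are those with high macrophage and interferon means, given above. Of 13 macrophage markers tested, 13 were higher in double against p53 (median 0.87) and 0 passed. The part of these in the Pmaip1 values was not tested. In a whole embryo, more cells that express a gene and more RNA per cell cannot be told apart.

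Apaf1 was steady apart from 1 array. It measured 8.22, 8.94 and 8.86 in double mutant, 8.76, 8.84 and 8.91 in acd, 8.82, 8.90 and 8.86 in p53 and 8.86, 8.86 and 8.83 in wt embryos. The 8.22 of double mutant replicate 1 was the lowest value, and the other 11 arrays lay within 8.76 to 8.94. Double against p53 was -0.19 ± 0.15 (adjusted p = 0.565), and 0.04 without that replicate. The other Apaf1 probe set lay below the array median on all 12 arrays, at 4.43 to 4.97 in double mutant, 5.07 to 5.21 in acd, 4.15 to 5.17 in p53 and 4.96 to 5.12 in wt embryos.

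The death receptors Fas and Tnfrsf10b lay below the 40th percentile on all 12 arrays. Fas measured 4.24, 4.07 and 4.31 in double mutant, 4.23, 4.20 and 4.22 in acd, 4.17, 4.15 and 4.24 in p53 and 4.19, 4.22 and 4.17 in wt embryos. All values lie within 4.07 to 4.31 and the groups overlap. Tnfrsf10b ran from 3.96 to 4.46 in double mutant, 4.19 to 4.62 in acd, 4.30 to 4.50 in p53 and 4.17 to 4.31 in wt embryos, and its other probe set from 3.89 to 4.46 over the 12 arrays. Neither gene is shown to be above background, and background can compress differences there.

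Eda2r varied most between embryos, together with Pmaip1. It measured 3.79, 3.56 and 3.82 in double mutant, 3.97, 5.58 and 5.97 in acd, 3.55, 3.89 and 3.88 in p53 and 4.42, 4.35 and 4.13 in wt embryos. All 6 arrays without p53 lay below all 6 arrays with it, and acd replicates 2 and 3 were the 2 highest. The nearest arrays of the 2 sets were p53 replicate 2 at 3.89 and acd replicate 1 at 3.97, both under the filter on low values. The split takes the p53 genotype of acd replicate 1 as labelled, which was not tested. Of all 18193 genes read, 18 (0.0989%) had all 6 arrays without p53 below all 6 with it, and Eda2r was the only 1 of the 9 read here. None of 20 p53 targets in arrest, feedback and repair did so. That split was looked at after the values were seen and has no test. Eda2r did not pass the filter on low values, since only acd replicates 2 and 3 lay above it, and with no filter its differences were 0.87 ± 0.37 in acd against wt (adjusted p = 1) and -1.45 ± 0.37 in double against acd (adjusted p = 0.407). Without acd replicate 1 these were 1.47 and -2.05. Values under the filter are not shown to be above background, so the sizes of these differences may be compressed. Eda2r lies on the X chromosome, and its 2 highest arrays and its lowest (p53 replicate 1) all carried Y-linked transcripts.

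**Figure D2:**
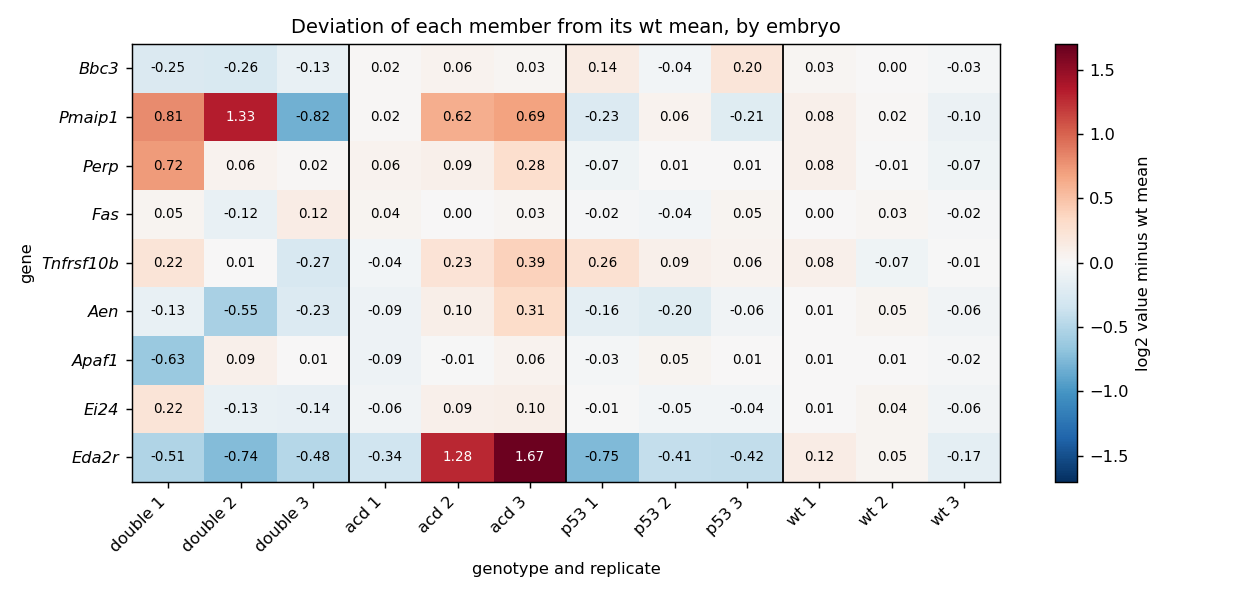
Value of each gene (rows) in each embryo (columns, by genotype and replicate) minus the gene's mean over the 3 wt embryos, in log2 units; red is above and blue below the wt mean. acd replicates 2 and 3 are above every wt embryo for Pmaip1, Perp, Tnfrsf10b, Aen, Ei24 and Eda2r. Eda2r is at 1.28 and 1.67 in these, and at -0.34 in acd replicate 1.

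Aen, too, was highest in acd replicates 2 and 3, over a smaller range. It measured 8.88, 8.46 and 8.77 in double mutant, 8.91, 9.11 and 9.32 in acd, 8.85, 8.81 and 8.95 in p53 and 9.02, 9.06 and 8.94 in wt embryos. The 3 double mutant values lay below the acd and wt values and overlapped the p53 values. Double against acd was -0.41 ± 0.12, a level of 0.753 of acd embryos (limma adjusted p = 0.371), and double against wt -0.30 ± 0.12 (adjusted p = 0.447). The loss of p53 alone gave -0.14 ± 0.12 and homozygous acd alone 0.11 ± 0.12, both with an adjusted p of 1. With array weights Aen passed in double against acd (-0.59, adjusted p = 0.0164) and double against wt (-0.50, adjusted p = 0.0188), where 13.1% and 13.4% of all genes passed. The weighted fits lean on double mutant replicate 2, whose Aen value was the lowest of all arrays. With sex as a term double against acd was -0.32 (adjusted p = 0.171).

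Aen has 4 probe sets, all with their lowest genotype mean in the double mutants. The second measured 6.07, 5.90 and 6.18 in double mutant, 6.22, 6.74 and 6.86 in acd, 6.39, 6.36 and 6.40 in p53 and 6.73, 6.43 and 6.46 in wt embryos. The third measured 6.98, 6.71 and 7.09 in double mutant, 7.25, 7.53 and 7.72 in acd, 6.96, 6.67 and 7.49 in p53 and 7.31, 7.45 and 7.32 in wt embryos. The fourth lay below the median of every array, at 4.49 ± 0.05 in double mutant, 4.78 ± 0.13 in acd, 4.68 ± 0.14 in p53 and 4.81 ± 0.14 in wt embryos (SD, n = 3 each). In double against acd the 4 probe sets gave -0.41, -0.55, -0.57 and -0.28, and in each of the 4 every double mutant array lay below every acd array. In double against wt they gave -0.30, -0.49, -0.44 and -0.32, again with no overlap in any of the 4. The 4 probe sets read the same embryos and are not independent. Fitted on their own the other 3 did not pass in double against acd (adjusted p = 0.454 each).

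**Figure D3:**
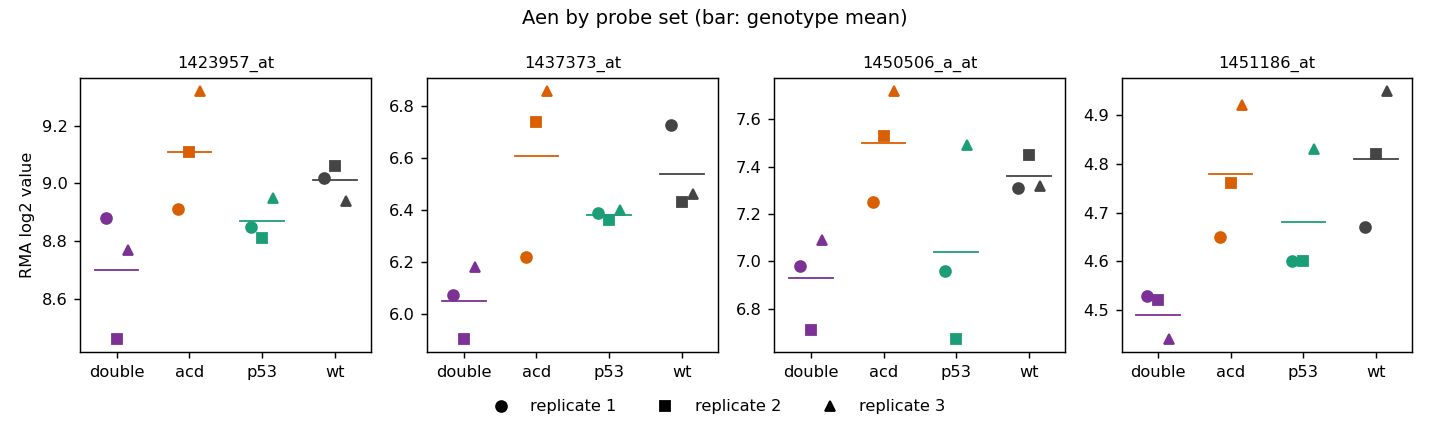
RMA log2 value (vertical axis) of the 4 Aen probe sets, 1 panel each with its own scale, by genotype (horizontal axis: double, acd, p53, wt); symbols are the 3 embryos of a genotype and bars are genotype means. In all 4 panels the double mutant values lie below the acd and wt values. The probe set used for the gene is at the left.

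Perp and Ei24 lay in a narrow range apart from double mutant replicate 1. Perp measured 8.57, 7.91 and 7.87 in double mutant, 7.92, 7.94 and 8.13 in acd, 7.78, 7.86 and 7.87 in p53 and 7.94, 7.84 and 7.78 in wt embryos. Its 1 high value was double mutant replicate 1, and double against p53 was 0.28 ± 0.15 (adjusted p = 0.474), 0.06 without that replicate and 0.55 with sex as a term (adjusted p = 0.0896). Ei24 measured 10.76, 10.42 and 10.40 in double mutant, 10.48, 10.64 and 10.64 in acd and 10.56, 10.59 and 10.49 in wt embryos, and averaged 10.51 ± 0.02 in p53 embryos (SD, n = 3). Its differences ran from -0.06 to 0.04 over the 5 comparisons of genotypes, each less than its SE of 0.10.

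**Figure D4:**
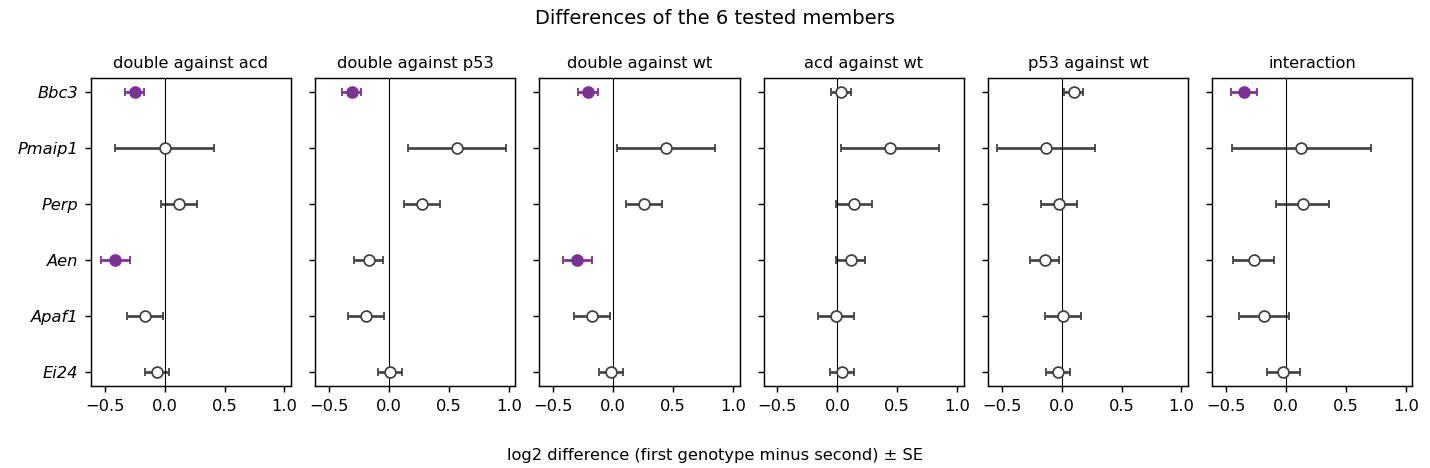
log2 difference (horizontal axis, first genotype minus second) of the 6 tested genes (rows) in 5 comparisons and the interaction (panels); points are limma estimates and bars are ± 1 SE. Filled points have an unadjusted p under 0.05, and none passes after adjustment over 13501 genes.

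As a list, the 9 genes read were higher in acd against wt in 8 cases and lower in 1, with a median of 0.11, against a median of -0.006 over all genes tested, of which 47.2% were higher. The median was 0.18 without acd replicate 1, 0.04 without acd replicate 3 and 0.03 with sex as a term. In p53 against wt 3 were higher and 6 lower (median -0.02, against -0.004 over all genes, 48.1% higher). In double against p53 4 were higher and 5 lower (median -0.05, against -0.009 with 48% higher). In double against acd 2 were higher and 7 lower (median -0.16, against -0.011 with 47.2% higher), and in double against wt 3 were higher and 6 lower (median -0.02, against -0.014 with 46.8% higher). The double against acd median was -0.22 without double mutant replicate 2 and -0.07 without replicate 3. The interaction was lower in 7 of 9 (median -0.18, against -0.005 with 49% of all genes higher). Over the 6 tested members alone the medians were 0.07 in acd against wt, -0.03 in p53 against wt, -0.08 in double against p53, -0.11 in double against acd, -0.10 in double against wt and -0.10 in the interaction. The comparisons share arrays, and the list has no test of its own.

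Genotypes that did not overlap gave 0 of the 9 genes in acd against wt, where 7.24% of all tested genes were higher and 9.86% lower without overlap. In p53 against wt 0 were higher (3.42% of all tested genes) and Eda2r was lower (3.36%). In double against p53 Perp was higher (3.29%), with 7.87 in the nearest array of each genotype, and Bbc3 lower (5.01%). In double against acd 0 were higher (4.41%) and Bbc3, Aen and Eda2r were lower (6.9%). In double against wt 0 were higher (4.96%) and the same 3 were lower (8.24%). Eda2r did not pass the filter and is not among the tested genes that these shares cover.

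The acd embryos were not alike. The mean of the 9 genes relative to wt was -0.05, 0.27 and 0.39 in acd replicates 1, 2 and 3. In the double mutants it was 0.06, -0.03 and -0.21, in the p53 embryos it ran from -0.10 to -0.04, and in the wt embryos from -0.06 to 0.05. The acd means lean on Eda2r, which did not pass the filter, at -0.34, 1.28 and 1.67. Pmaip1 was next in replicates 2 and 3, at 0.62 and 0.69. The median deviation of the 9 genes was -0.04, 0.09 and 0.28 in acd replicates 1, 2 and 3. A mean of 20 other p53 targets, those of arrest, feedback and repair, was -0.11, 0.20 and 0.23 in the same acd embryos, and -0.15 to -0.01 in the double mutants. acd replicate 1 was the lowest acd embryo by both means, with an Acd value of 8.27 against 8.31 and 8.22 in replicates 2 and 3. In that embryo several p53 targets lay at the level of the arrays labelled as lacking p53, a pattern looked at after the values were seen. Among these other targets Cdkn1a, the cell cycle inhibitor p21, measured 8.06, 8.07 and 8.06 in double mutants, 8.02, 8.83 and 8.99 in acd, 7.92, 8.04 and 8.02 in p53 and 8.09, 8.09 and 8.04 in wt embryos. Ccng1, cyclin G1, measured 8.44, 8.51 and 8.33 in double mutants, 8.34, 10.16 and 10.34 in acd, 8.32, 8.54 and 8.39 in p53 and 9.22, 9.26 and 8.75 in wt embryos. Phlda3, an inhibitor of Akt signalling, measured 7.23, 7.07 and 7.09 in double mutants, 7.21, 8.06 and 8.16 in acd, 7.08, 6.93 and 7.16 in p53 and 7.59, 7.71 and 7.35 in wt embryos. In acd replicate 1, Ccng1 and Phlda3 lay below every wt array and within the range of the arrays without p53, and Eda2r, at 3.97, lay between the 2 sets. Whether the p53 genotype of that embryo is as labelled was not tested, since the p53 transcript was not analysed, and every acd mean above includes it. Y-linked transcripts were present in all 3 acd embryos.

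Without acd replicate 1, a setting applied to these other targets after the data were seen, 3 of all 13501 genes passed in acd against wt and 4 in double against acd. Of the 20 arrest, feedback and repair targets, 2 were among the 3 and 3 among the 4. That embryo was singled out by its low values of these same targets. Their p-values without it are therefore a description and no independent support. In acd against wt Cdkn1a was higher by 0.84 (limma adjusted p = 0.00549) and Ccng1 by 1.17 (adjusted p = 0.0485). In double against acd Ccng1 gave -1.82 (adjusted p = 0.00217), Cdkn1a -0.85 (adjusted p = 0.00505) and Phlda3 -0.98 (adjusted p = 0.03). Of the 6 tested apoptotic targets 0 passed in either comparison without that embryo. Eda2r is not among these 6, since it did not pass the filter on low values, and it was not tested in this setting. Its differences there were 1.47 in acd against wt and -2.05 in double against acd.

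**Figure D5:**
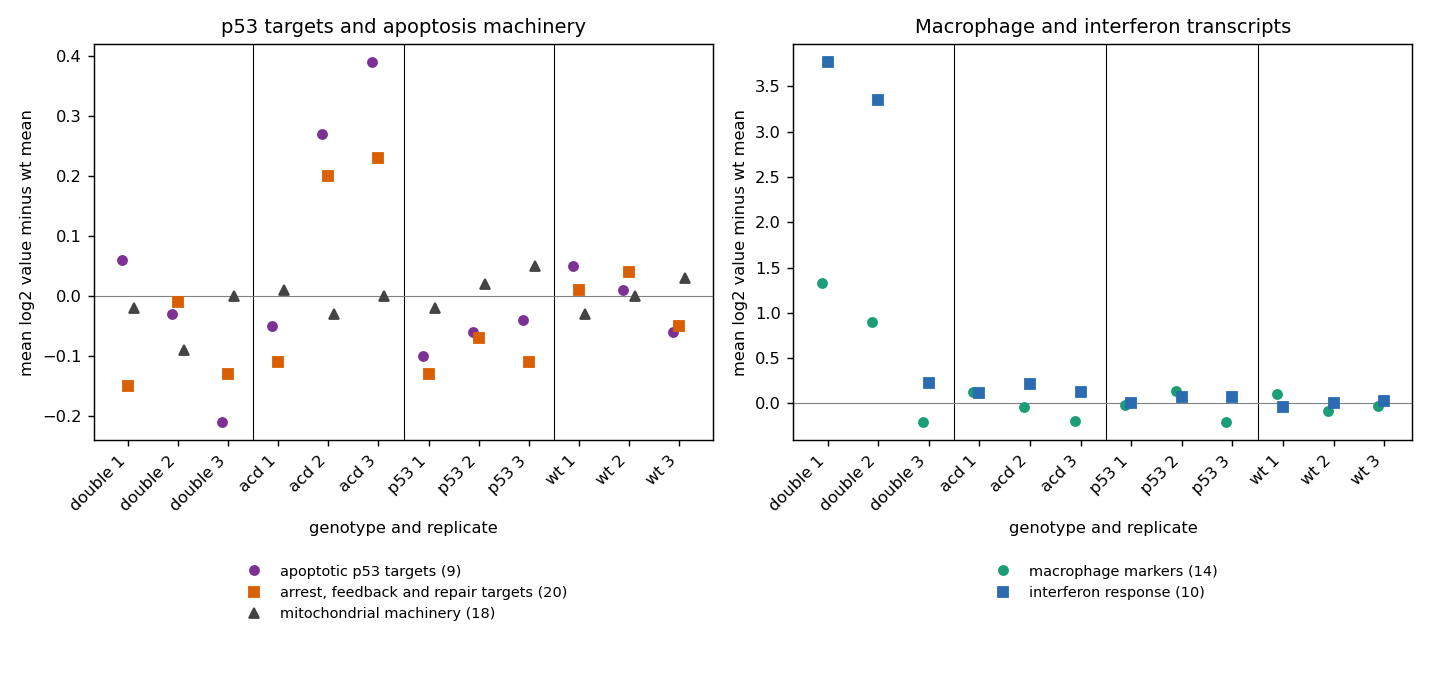
Mean over the genes of a list of the log2 value minus the wt mean (vertical axis), in each embryo (horizontal axis, by genotype and replicate). Left, the 9 apoptotic p53 targets, 20 p53 targets of arrest, feedback and repair, and 18 genes of the mitochondrial apoptosis machinery. There acd replicates 2 and 3 are highest in the first 2 lists, in the first of them mostly through Eda2r and Pmaip1. Right, macrophage markers and interferon response genes, on a wider scale, high in double mutant replicates 1 and 2.

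With all 12 arrays no gene passed in the rest of the pathway. Of 20 arrest, feedback and repair targets tested, 0 passed in any comparison, with medians of 0.05 in acd against wt (12 of 20 higher) and -0.15 in double against acd (13 of 20 lower). The 4 with the smallest p in double against acd, with acd replicate 1 included, did not all go the same way. Phlda3 measured -0.68 ± 0.20, Gtse1 -0.39 ± 0.12 and Ccng1 -1.19 ± 0.39, while Ddit4 was higher, at 0.45 ± 0.14 (limma adjusted p = 0.371 each). Of 18 tested genes of the mitochondrial machinery outside the p53 targets 0 passed, with a median of 0 in acd against wt and -0.02 in double against acd. Bik, a BH3-only protein, measured 0.42 ± 0.11 in double against wt (adjusted p = 0.447), Bcl2, the survival protein, -0.41 ± 0.14 (adjusted p = 0.447), and Bcl2l11 (Bim) -0.41 ± 0.16 in double against p53 (adjusted p = 0.463). Of 9 tested genes of death receptor signalling 0 passed, with medians of 0.03 in acd against wt and 0 in double against acd. Cflar, the inhibitor of caspase 8, measured -0.21 ± 0.11 in acd against wt (adjusted p = 1). In either direction, limma gave an unadjusted p under 0.05 for 10 of the 20 arrest targets in double against acd (12.6% of all tested genes). It did so for 5 of the 18 mitochondrial genes in double against p53 (10.7%), and for at most 2 of the 9 receptor genes in any comparison.

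Over the 12 arrays, the genes whose values most resembled the mean of the 6 tested members were Arap2 (Pearson r 0.908, Spearman rho 0.804), 1810021B22Rik (0.875 and 0.769), Pitpnm2os1 (0.868 and 0.811), Mm2pr (0.852 and 0.797) and Trp53inp1 (0.847 and 0.797). Among these Trp53inp1, a p53-induced nuclear protein that is also among the 20 arrest, feedback and repair targets, was the 1 with all values well above the array median, at 9.74, 9.92 and 9.32 in double mutants, 9.48, 10.06 and 9.89 in acd, 9.52, 9.52 and 9.32 in p53 and 9.73, 9.66 and 9.54 in wt embryos. The other 4 lay between 4.52 and 5.70, against array medians of 5.32 to 5.40, and are not shown to be above background. Without double mutant replicates 1 and 2 the same 5 Pearson coefficients ran from 0.852 to 0.938 over 10 arrays. The members were centred and not scaled for that mean. Pmaip1, at 5.75 to 7.90, had the widest range of the 6 and so weighs most in it. The arrays share genotypes, and the genes were picked as the highest among those tested, so these values are a description.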

How the data were processed

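Values were used as the authors deposited them, on a log2 scale. Per the series' design text, the scanner files went through justRMA (background correction, quantile normalization, summary by probe set), and the authors' gene selection used BRB-ArrayTools 4.4.0. The labels' protocols give 250 ng of total RNA as input. Because RMA makes the arrays' distributions near-equal, a shift in the total amount of RNA is not visible. Array medians lay between 5.32 and 5.40. Signal over background is not given, and precision is limited by the small groups of embryos.

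Of 45101 probe sets in all, 64 were controls. The platform annotation gave 1 symbol for 34945 and several for 932. RefSeq (GRCm38.p6) matched 34741 of these by gene identifier and changed 0 symbols. Tested genes had to exceed the 40th percentile of an array in 3 or more arrays. limma 3.58.1 in R 4.3.3 fitted 1 mean for each genotype over the 12 arrays together, leaving 8 residual degrees of freedom. Its moderated tests were two-sided, with Benjamini-Hochberg adjusted p-values over 13501 genes and a threshold of 0.05. The fit was checked on simulated data.

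The members, lists, comparisons and alternatives were chosen with earlier results of these data known. All members are named, and of other lists at most 4 genes with the smallest p in a comparison, as well as the 5 genes most like the members' mean. Alternatives were a replicate block, other filters, probe set rules and normalizations, another variance model, array weights, only the arrays compared, sex as a term, and leaving out arrays.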

Additional observations from a re-analysis of the deposited data

Results flagged for a closer look

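Bbc3 was singled out because every acd embryo lay above the wt mean and every double mutant embryo below the p53 mean. How many of all genes meet that rule was not counted. Homozygous acd thus went with a difference of 0.03 where p53 was present and of -0.31 where it was absent, and the difference between these effects was -0.35. limma's interaction test of that difference gave an unadjusted p of 0.00829 and did not pass (adjusted p = 0.879, or 0.0726 to 0.983 over 23 alternatives). The first of the 2 effects was smaller than its SE of 0.08. When each array was left out in turn the difference between the effects ran from -0.42 to -0.30. Bbc3 was picked by these same values, so this range and the p above are a description and no independent support.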

How the results depend on the processing

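The count of members that passed stayed at 0 in 137 of 143 combinations of a comparison and an alternative. Array weights lean on replicate 2 among the double mutants. With them the count was 1 in double against p53, 2 in double against acd and 3 in double against wt. Leaving out each array in turn it ran from 0 to 2 in double against p53, 0 to 1 in double against acd and 0 to 1 in double against wt, and the counts above 0 were those without double mutant replicate 3, where 1756, 1876 and 1646 of all genes passed, against 1, 0 and 2 with it. With sex as a term the members' median was -0.16 in p53 against wt, -0.05 in double against acd and -0.03 in the interaction. Among the double mutants that term cannot be told apart from the outlying array of replicate 1. In double against wt it was -0.14 without double mutant replicates 1 and 2, and -0.13 to -0.01 when each array was left out. The interaction median ran from -0.31 to -0.14 when each array was left out. The cause of these shifts was not tested. No other median moved by more than the SD between embryos of 0.1.

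Replicate numbers are shared by the 4 genotypes, but of 18 same-numbered pairs only 7 correlated above 0.1 (range -0.226 to 0.395), so they were not treated as pairs. With the replicate block 0 members passed in each of the 6 comparisons, with at most 1 of all genes in any. Of 858 values of single members under an alternative, 10 newly passed, none that had passed was lost, as none had, and 52 changed sign while passing in neither setting, in Apaf1, Ei24, Perp and Pmaip1. Higher and lower describe means or arrays here, since no member passed with all arrays and no weights. With no filter 0 of the 9 genes read passed in any comparison. Eda2r, Fas and Tnfrsf10b are limited by signal near background.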
